A study of Mus musculus with 6 samples.

Results

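Between the receptor MET and its intracellular pathways stand adaptor, docking and regulatory proteins. Of these, 9 genes are described here in satellite cells of Magic-F1 and control mice: Gab1, Gab2, Grb2, Shc1, Sos1, Ptpn11, Cbl, Crk and Crkl. The genes were taken by name, and every non-control probe that the array files assign to them was used. This gave 17 of the 41174 non-control probes, and 9 of 28307 gene names. Of the 17 probes, 15 were bright enough to be tested and 12 were well above background on all 6 arrays.

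Satellite cells are the stem cells of skeletal muscle. The RNA came from proliferating satellite cells of female mice, 3 samples of the genotype Magic-F1+/+ and 3 control samples, each on 1 single-colour Agilent array. Magic-F1 is an engineered protein built from domains of hepatocyte growth factor (HGF), the ligand of MET. The titles of the control samples carry the word MLC3F and those of the Magic-F1 samples the word Omo, and the labels explain neither. The age of the mice, the promoter of the transgene and any pooling of animals do not appear in the labels. The samples are called biological triplicates without separate animals or cultures being named. The p-values therefore cover the spread among 3 samples a group, and that spread may be technical. The comparison bears on how the transcripts of these adaptors differ between cells of mice with and without Magic-F1.

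When HGF binds MET, tyrosines near the end of the receptor become phosphorylated and recruit Grb2 and the docking protein Gab1. Grb2 carries the exchange factor Sos1, which loads Ras, and Gab proteins recruit the phosphatase SHP2, the product of Ptpn11, which sustains ERK signalling. Cbl tags the activated receptor with ubiquitin, and Crk and Crkl bind phosphorylated Gab1 and lead to small GTPases of the Rap and Rac type. In satellite cells HGF is known as a signal for activation and migration.

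The groups differed widely. Each array was scaled to the 75th percentile of its own signal, which averaged 348 ± 7.78 for Magic-F1 and 282 ± 8.93 for controls (SD, n = 3 each). The share of spots well above background ran from 49.2% to 52.0%, and the number of arrays limits the precision. Markers of other cell types moved with the groups. In the Magic-F1 samples 11 of 11 tested macrophage markers were higher, with a summed signal of 1107 to 1150 against 78.8 to 82.1 in the controls, in units of each array's 75th percentile. All 8 tested neutrophil markers were lower (0.275 to 0.289 against 583 to 629). Of these, Camp, Ltf, Ngp and S100a9 stayed at background on all 3 Magic-F1 arrays. Elane and Lcn2 were too dim in both groups to be tested. All 9 tested myogenic markers were lower (60.5 to 62.0 against 642 to 676). Pax7, the defining factor of satellite cells, stayed at background on all 3 Magic-F1 arrays, and Myf5 was too dim in both groups to be tested. All 8 adipocyte markers were higher (725 to 764 against 146 to 149). Of 7 tested endothelial markers 6 were lower (3.739 to 3.999 against 20.6 to 22.7), and Kdr was higher (log2 0.64). Cdh5 and Pecam1 were at background on all 3 Magic-F1 arrays, and Mrc1 and Retn on all 3 control arrays. These entered the test through the other group alone. Over all genes named through RefSeq, 40.1% were called higher and 49.3% lower. The part of the marker lists in the results below was not tested. In bulk samples, fewer cells of a type and less RNA per cell cannot be told apart.

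**Figure D1:**
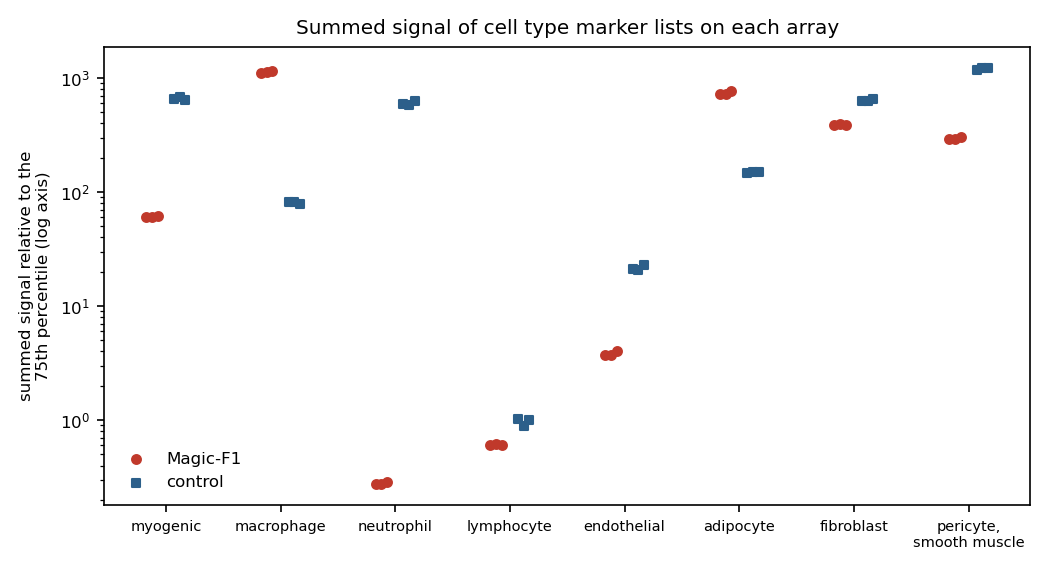
Summed signal of 8 lists of cell type markers on each array, in units of the array's 75th percentile, on a log axis. Circles are the 3 Magic-F1 arrays and squares the 3 control arrays; the macrophage sums are 1107 to 1150 against 78.8 to 82.1 and the neutrophil sums 0.275 to 0.289 against 583 to 629.

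Each probe is a strand of 60 bases, and which part of a transcript it reads matters here because probes of 1 gene moved differently. The 6 probes taken as coding are printed 5′ to 3′ as the array files give them, with positions on mm9. No gene annotation of mm9 was used, so coding rests on knowledge of these proteins. Each probe has at least 1 reading frame free of stop codons. Frames were counted in these 6 probes alone, so this does not show that they are coding. In the Crkl probe that frame is not the one that ends in the likely stop codon. The other probes were not placed within their transcripts' coding or untranslated parts. The first, for Gab2 (chr7:104452781-104453440, plus strand), spans 660 genomic bases and so crosses an intron. The first of the Ptpn11 probes lies at chr5:121612770-121612829 on the minus strand. The second Ptpn11 probe, at chr5:121594679-121599156, spans 4478 genomic bases, also crosses an intron, and is annotated to transcript variant NM_001109992. The Cbl probe lies at chr9:43961868-43961927 (minus strand) and the Crk probe at chr11:75505892-75505951 (plus strand). The Crkl probe at chr16:17483830-17483889 (plus strand) runs to the end of the reading frame, with the likely stop codon in capitals.
Gab2 A_51_P194613: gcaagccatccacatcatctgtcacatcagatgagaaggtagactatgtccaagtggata
Ptpn11 A_52_P641185: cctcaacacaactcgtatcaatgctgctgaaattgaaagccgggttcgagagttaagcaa
Ptpn11 A_52_P211393: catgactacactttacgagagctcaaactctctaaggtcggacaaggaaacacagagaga
Cbl A_51_P332081: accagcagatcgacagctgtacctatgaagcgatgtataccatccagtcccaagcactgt
Crk A_52_P618807: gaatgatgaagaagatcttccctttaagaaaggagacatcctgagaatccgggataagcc
Crkl A_51_P350843: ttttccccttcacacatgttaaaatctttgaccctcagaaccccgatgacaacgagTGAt

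Most of the adaptors were higher in Magic-F1 cells, Grb2 by 4.22-fold among those measured in both groups, while Crk was lower and Shc1 showed no detectable change. By each gene's brightest tested probe, 7 of 9 genes were higher, 1 was lower and 1 was not called. Among these 7, Gab2 was at background on all control arrays and entered the test through the Magic-F1 arrays alone. Sos1 and Cbl lost their calls with the normexp background correction, and a second Crkl probe was called lower. Over all genes named through RefSeq, 89.3% were called, 40.1% higher and 49.3% lower, so 8 calls among 9 genes is a share near the background. By probe, 13 of 15 were called (limma, adjusted p under 0.05), against 87.7% of all 21190 tested probes. Of these 13, 10 were higher and 3 lower, where 41.3% and 46.4% of all tested probes were. The values of both groups did not overlap for 13 of 15 probes, against 89.1% of all. The median change of the 15 probes was log2 0.64, against −0.10 over all tested probes. Of the 10 higher probes, 3 were at background on all control arrays and so entered the test through the Magic-F1 arrays alone. Among the 12 probes well above background on all 6 arrays, 7 were higher and 3 lower, with a median of 0.40. These 83.3% called stand against 88.4% of all 18146 probes that met this condition, whose median was −0.135. A change of at least 2-fold was called for 6 of the 15 (40%), against 52.3% of all tested probes. Scaled to the spiked-in transcripts instead, 12 member probes were higher and 2 lower, the median of all probes moved from −0.10 to 0.36, and the share of called probes that were higher rose from 47.1% to 60.7%. Small changes in either direction therefore depend on the scaling.

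**Figure D2:**
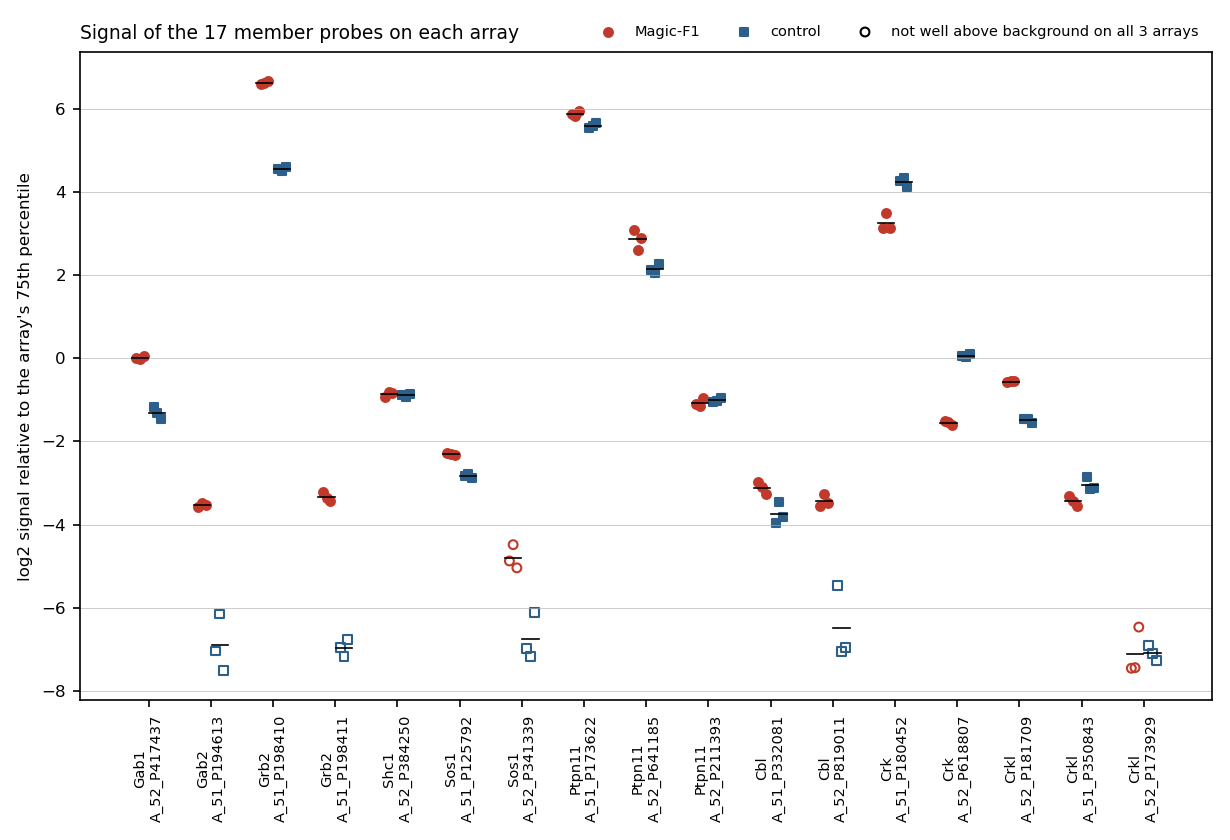
Signal of the 17 probes on each array, in log2 relative to the array's 75th percentile. Circles are Magic-F1 and squares control arrays, bars are group means of 3, and open symbols mark a group not well above background on all 3 arrays. The Grb2 probe A_51_P198410 has means of 6.63 against 4.55, and levels of different probes are not comparable.

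The docking protein Gab1, the main substrate through which MET branches its signal, was 2.53-fold higher. Its probe (A_52_P417437, chr8:83289342-83289401, minus strand) read −0.0014, −0.0075 and 0.069 on Magic-F1 arrays 1, 2 and 3, in log2 units relative to the 75th percentile, and −1.18, −1.32 and −1.47 on control arrays 1, 2 and 3. All Magic-F1 values lay more than 1 log2 unit above all control values. The change was log2 1.34 (SE 0.08, adjusted p = 1e-05), with 1.36 on slide 1, which held 2 arrays of each group, and 1.31 on slide 2, which held 1 of each. It was 0.91 with the normexp background correction and 1.80 with spike-in scaling.

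Gab2, a related docking protein that is prominent in blood cells, stood well above background in all 3 Magic-F1 samples and in no control sample. Its probe, whose coding sequence is printed above, read −3.58, −3.48 and −3.52 on the Magic-F1 arrays. The control arrays gave −7.04, −6.15 and −7.52, far below every Magic-F1 value. Gab2 was thus at least 2.75-fold higher, where the bound sets the Magic-F1 mean against the lowest signal well above background on each control array. The fit's adjusted p of 0.000106 sets its signal against background values, and the fitted log2 change was 3.38, or 0.25 with the normexp background correction. The signal of Gab2 in Magic-F1 cells is low, and its size is not measured beyond the bound.

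Grb2, the adaptor that joins activated receptors to Sos1, showed the largest rise among the genes measured in both groups. The brighter probe (A_51_P198410, chr11:115505517-115505576, minus strand) read 6.59, 6.63 and 6.66 in Magic-F1 cells and 4.55, 4.51 and 4.60 in controls. The replicates of each group lay within 0.1 log2 units of each other, far less than the gap between the groups. The change was log2 2.08 (SE 0.05, adjusted p = 1.64e-07), a 4.22-fold rise, with 2.06 on slide 1 and 2.125 on slide 2. It was 2.09 with normexp background and 2.54 with spike-in scaling.

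A second Grb2 probe was much dimmer and also higher. A_51_P198411 shares the run attttggaattggagatatc with the first probe, at bases 41 to 60 of the first and 1 to 20 of the second. Its listed span, chr11:115505444-115505488, is 45 bases wide for a probe of 60 bases. That span does not overlap the listed span of the first probe, although the shared run is in both. The listed positions therefore do not account for the shared run. It read −3.21, −3.35 and −3.43 in Magic-F1 cells, against −6.96, −7.17 and −6.77 in controls, none of which was well above background. By the same bound it was at least 3.14-fold higher; the fit's adjusted p of 5.3e-07 sets it against background values, and with normexp the log2 change was 0.36. No other pair among the 17 probes shared a run of 12 or more bases.

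Shc1, which binds phosphorylated receptors and hands them Grb2, did not pass the test. Its probe (A_52_P384250, chr3:89233464-89233523, plus strand) read −0.93, −0.80 and −0.84 in Magic-F1 cells and −0.87, −0.93 and −0.86 in controls. The ranges overlapped. The difference was log2 0.03 with a 95% interval of −0.10 to 0.16 (adjusted p = 0.63), an interval for the scaling to the 75th percentile. Spike-in scaling moved it to 0.49 with a call (adjusted p = 0.000501), the scaling under which the median of all probes moved up to 0.36.

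Sos1, the exchange factor that activates Ras, was modestly higher. The tested probe (A_51_P125792, chr17:80797187-80797246, minus strand) read −2.28, −2.29 and −2.34 against −2.82, −2.79 and −2.87, with no overlap. The change of log2 0.53 (SE 0.05, adjusted p = 5.9e-05) was 1.44-fold and lost its call with normexp background (0.0998, adjusted p = 0.0531). A second Sos1 probe (A_52_P341339, chr17:80793312-80793371) was not tested, since just 2 Magic-F1 arrays and no control array showed it well above background. It read −4.88, −4.48 and −5.04 against −6.98, −7.17 and −6.11.

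Ptpn11 encodes SHP2, the phosphatase that Gab proteins recruit, and its probes did not move alike. The brightest (A_51_P173622, chr5:121580585-121580644, minus strand) read 5.89, 5.82 and 5.94 against 5.55, 5.58 and 5.67, a rise of log2 0.28 (SE 0.06, adjusted p = 0.00331). The coding probe A_52_P641185 read 3.08, 2.60 and 2.90 against 2.13, 2.06 and 2.27, a rise of log2 0.71 (SE 0.13, adjusted p = 0.00249). Neither pair of groups overlapped, and both rises were under 2-fold.

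The intron-crossing Ptpn11 probe A_52_P211393 was not called. It read −1.10, −1.14 and −0.96 against −1.05, −1.04 and −0.96, and these ranges overlapped. Its difference of −0.05 had a 95% interval of −0.21 to 0.11 (adjusted p = 0.463). With spike-in scaling it was 0.41 (adjusted p = 0.000891). Both other Ptpn11 probes remained called under that scaling, at 0.74 and 1.16.

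Cbl, the ubiquitin ligase that sends activated MET for degradation, was higher by both of its probes, each of them dim. The coding probe A_51_P332081 read −2.98, −3.10 and −3.25 in Magic-F1 cells and −3.97, −3.47 and −3.83 in controls. The groups did not overlap, but the gap between them was smaller than the spread within the controls. The rise of log2 0.64 (SE 0.14, adjusted p = 0.00572) fell to 0.0034 with normexp background (adjusted p = 0.958) and was 0.37 on slide 2 against 0.78 on slide 1. A_52_P819011 (chr9:43958124-43958183, minus strand) read −3.56, −3.25 and −3.49 against −5.47, −7.05 and −6.95. No control value of this probe was well above background, so it was at least 2.92-fold higher. The fit's adjusted p of 0.000613 sets it against background values, and with normexp the log2 change was 0.29.

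Crk, an adaptor that leads from Gab1 and the scaffold p130Cas to Rap and Rac, was lower by both probes. The brighter probe (A_51_P180452, chr11:75518627-75518686, plus strand) read 3.13, 3.50 and 3.14 against 4.26, 4.34 and 4.13. Its fall of 1.98-fold (log2 −0.99, SE 0.12, adjusted p = 0.000297) became −0.53 with spike-in scaling and kept its call. The coding probe A_52_P618807 read −1.51, −1.53 and −1.61 against 0.065, 0.025 and 0.10. It fell 3.06-fold (log2 −1.61, SE 0.05, adjusted p = 4.96e-07), and every Magic-F1 value lay below every control value for both probes. The change of A_52_P618807 was −1.24 with normexp background.

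Crkl, the close relative of Crk, gave opposite calls from 2 probes. The brighter probe (A_52_P181709, chr16:17486238-17486297, plus strand), which starts at base 3752 of the transcript, read −0.58, −0.55 and −0.55 against −1.46, −1.46 and −1.55. This was a 1.905-fold rise (log2 0.93, SE 0.05, adjusted p = 4.08e-06), or log2 0.64 with normexp background. The coding probe A_51_P350843, which starts at base 1344 of the same transcript, read −3.32, −3.42 and −3.55 against −2.85, −3.15 and −3.12, a fall of log2 −0.39 (SE 0.10, adjusted p = 0.0112).

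The fall of the Crkl coding probe was within a scaling's reach. It became −0.26 with each array's median (adjusted p = 0.081) and 0.071 with spike-in scaling (adjusted p = 0.592), while the rise of the brighter probe kept its call in both. The remaining Crkl probe (A_52_P173929, chr16:17470700-17470759, plus strand) stayed at background on all 6 arrays and was not tested. The direction for Crkl therefore depends on the probe.

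**Figure D3:**
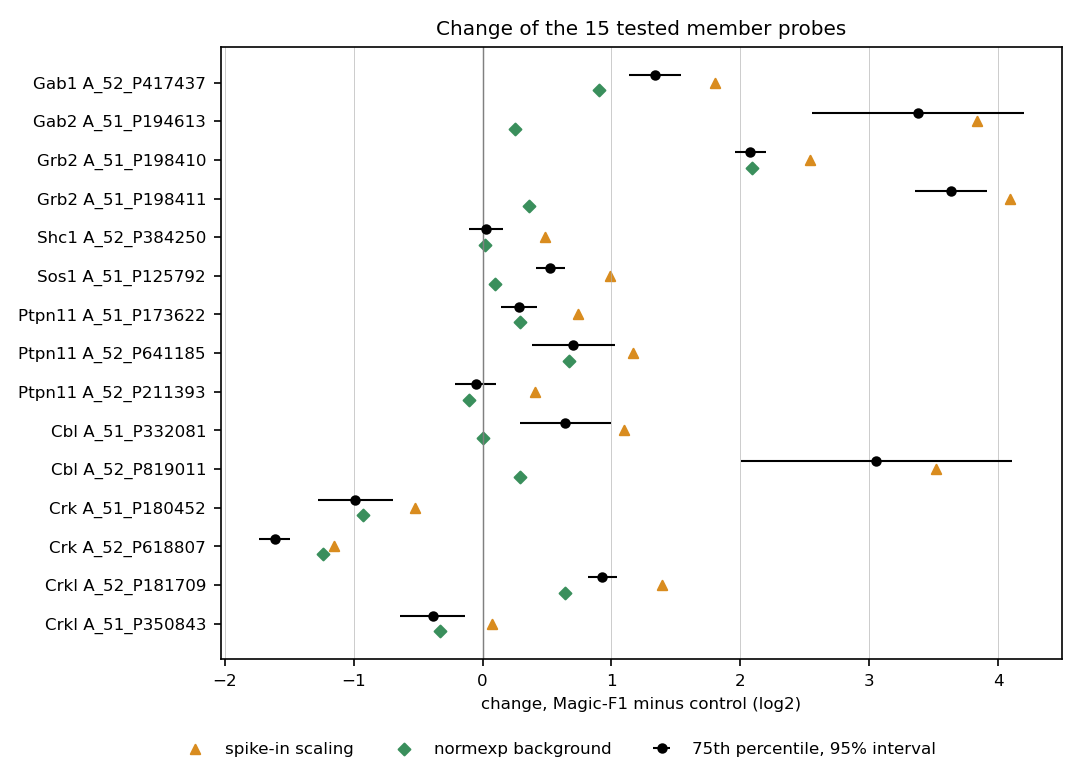
Change of the 15 tested probes, Magic-F1 minus control, in log2. Black points with bars are the 75th percentile scaling with the 95% interval of the fit, triangles the spike-in scaling and diamonds the normexp background correction. Grb2 A_51_P198410 stays between 2.08 and 2.54, whereas the Cbl, Gab2 and Grb2 probes near background shrink with normexp. Probes well above background on all 6 arrays shrink too, among them Sos1 (0.53 to 0.0998), Gab1 (1.34 to 0.91) and Crkl A_52_P181709 (0.93 to 0.64).

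Differences between probes of 1 gene were tested directly, as the difference of their changes against the brightest probe. In Crkl, Crk and Ptpn11, 4 pairs had both probes well above background on all 6 arrays, and 4 of 4 differences were called, where 51.2% of 4248 such pairs over all genes were. The Crkl probes differed by log2 −1.32 (SE 0.10, adjusted p = 0.000115), and the Crk probes by −0.63 (SE 0.13, adjusted p = 0.00753). In both genes the probe taken as coding was the more negative one. The Ptpn11 probes A_52_P211393 and A_52_P641185 were also taken as coding and went opposite ways. They differed from the brightest by −0.34 (adjusted p = 0.00267) and 0.42 (adjusted p = 0.0233). For Grb2 and Cbl 1 probe of the pair was at background in the controls, so the size of the difference is not known. For Grb2 its direction is not known either. For Cbl the bound of 2.92-fold for A_52_P819011 lies above the 1.56-fold rise of A_51_P332081, and both probes are dim.

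Of 10 paralogues of these adaptors, 7 had a tested probe, of which 5 were higher and 0 lower, 71.4% called where 89.3% of all named genes were. Gab3, a further Gab protein, was 18.7-fold higher (log2 4.23, SE 0.09), and 2.25 in log2 with normexp background. Ptpn6, which encodes SHP1, the phosphatase of blood cells closest to SHP2, was 8.66-fold higher (log2 3.12, SE 0.04), and a second probe rose by 2.69. Grap, a Grb2-like adaptor of blood cells, rose 5.92-fold, Sos2 3.21-fold and Shc2 1.51-fold. Their adjusted p lay between 3.38e-08 for Ptpn6 and 0.00187 for Shc2. Shc3 (log2 0.75, adjusted p = 0.123) and Shc4 (−0.10, adjusted p = 0.668) did not pass. With normexp background both were called lower, at −0.12 (adjusted p = 0.0444) and −0.18 (adjusted p = 0.00609), and with spike-in scaling Shc3 was called higher, at 1.21. Grap2, Cblb and Cblc were too dim to be tested. Of the tested cell type markers, 11 of 11 for macrophages and 8 of 8 for adipocytes were higher as well. Lower were 8 of 8 for neutrophils and 9 of 9 myogenic ones. A link of the paralogues to any cell type was not tested.

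Other receptor adaptors went both ways, with 8 of 17 tested genes higher, 8 lower and 1 not called. The 94.1% called stand against 89.3% of all named genes (40.1% higher, 49.3% lower), and the median of log2 −0.41 against −0.18. Dok3 and Dok2, docking proteins of blood cells, were 11.5-fold and 4.36-fold higher, and Sh2b3, an inhibitor of cytokine receptor signalling, was 7.51-fold higher. Dok7, which activates the muscle kinase MuSK at the neuromuscular junction, was 9.89-fold lower, and its second probe fell by 4.12 on the log2 scale. Grb10, an imprinted inhibitor of insulin receptor signalling, was 6.01-fold lower, with 2 more probes at −2.92 and −2.85, and Dok5 was 5.16-fold lower. All of these had adjusted p of at most 1.8e-07. With normexp background Dok5 changed by −1.33 in place of −2.37.

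Among 22 tested effectors and partners, 14 were higher, 5 lower and 3 not called. The 86.4% called stand against 89.3% of all named genes (40.1% higher, 49.3% lower), and the median of log2 1.04 against −0.18. With spike-in scaling 17 were higher and 2 lower. Elmo1, which works with Dock1 to activate Rac, was at least 6.09-fold higher, being below background in the controls, and its log2 change was 0.81 with normexp background. Mapk3, which encodes ERK1, rose 4.02-fold, the Ras inhibitor Rasa1 3.30-fold (log2 1.72, or 0.93 with normexp background), and Sh3kbp1, the Cbl partner CIN85, 3.24-fold. Braf was 3.91-fold higher by its brightest probe, but its other probes gave −0.62 and 0.15. Bcar1, which encodes the Crk partner p130Cas, was 3.49-fold lower. Further partners of Crk were named after their values were seen: Dock1 was 3.12-fold higher and Rapgef1, the Rap exchange factor that binds Crk, 1.98-fold higher. Crk and Bcar1 thus fell, while Rapgef1 and Dock1 rose (adjusted p = 5.17e-06 for Rapgef1 and 6.94e-07 for Dock1).

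At the level of the receptor, Met was 6.25-fold lower (log2 −2.64, SE 0.06), at −3.01 ± 0.05 against −0.37 ± 0.09 (SD, n = 3 each), and its second probe fell by 1.45. The fall was −1.69 with normexp background. Hgf was 1.47-fold higher. Mst1r, the receptor RON that is related to MET, was 4.76-fold higher, and its ligand Mst1 rose by log2 5.13, with only 1 control array well above background. With normexp background these were 0.81 and 2.50. All 4 passed the test, as 89.3% of all named genes did (adjusted p between 1.86e-07 for Met and 0.000731 for Hgf). Met thus fell where Gab1, Grb2 and Sos1 rose, though Sos1 lost its call with normexp background. Of all named genes, 49.3% were called lower and 40.1% higher. Markers called lower were 9 of 9 myogenic, 8 of 8 neutrophil and 6 of 7 endothelial ones. Called higher were 11 of 11 macrophage and 8 of 8 adipocyte markers. A link of Met to any of these lists was not tested.

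**Figure D4:**
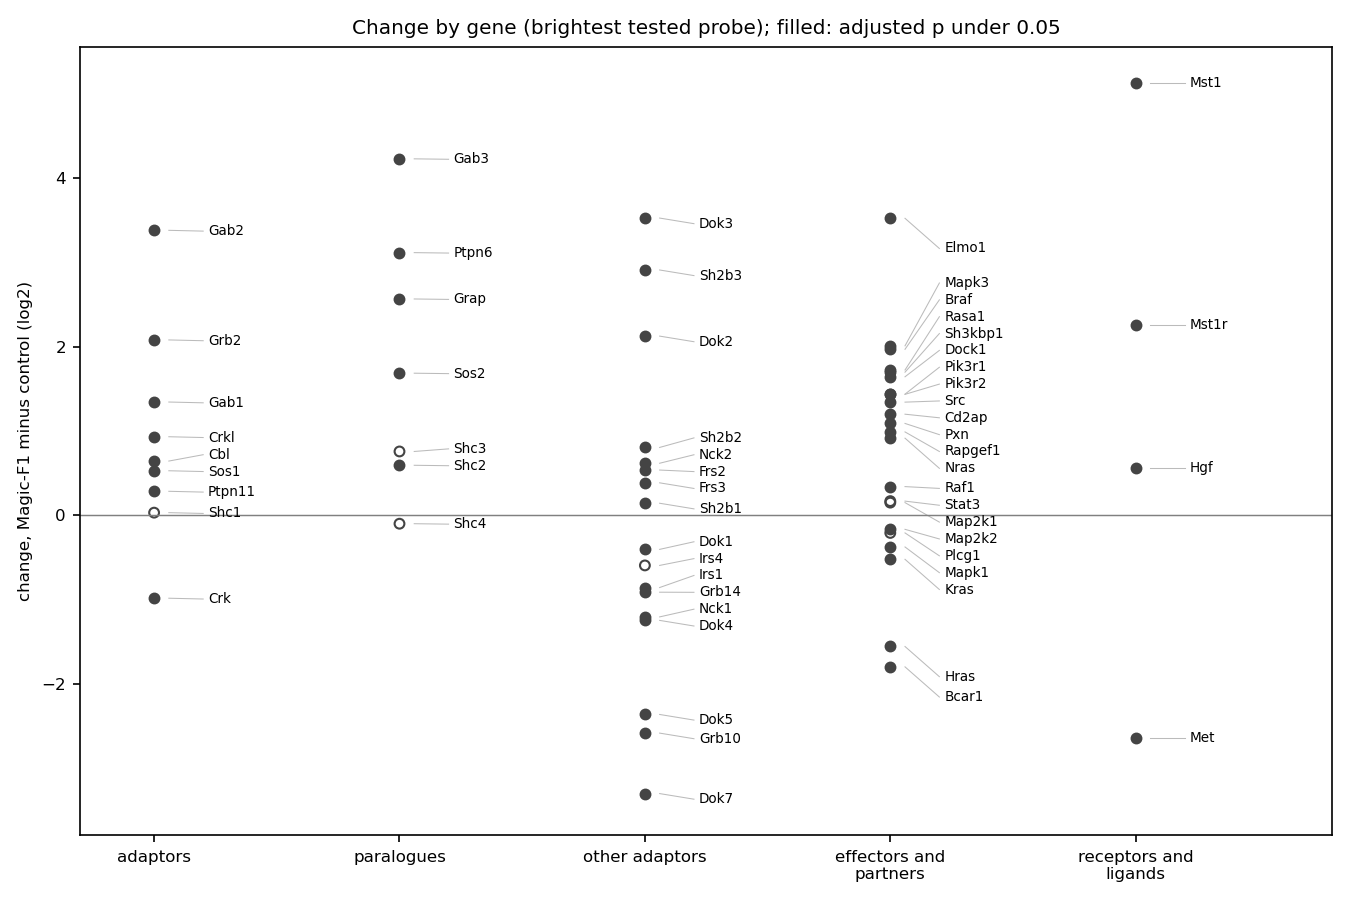
Change of each gene, Magic-F1 minus control, by its brightest tested probe in log2, for the adaptors, their paralogues, other adaptors, effectors and partners, and receptors with ligands. Filled points passed adjusted p under 0.05; Gab2 and Elmo1 are drawn at the fitted value although their control signal was below background. Mst1, above background on 1 control array, is drawn at 5.13 and Gab3 at 4.23, which fall to 2.50 and 2.25 with normexp background.

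The genes whose profile over the 6 arrays lay closest to that of Grb2 were found by the Euclidean distance between mean-centred profiles. The search ran over 11875 genes named through RefSeq. They were Usp8, a deubiquitinase of endosomal receptors (distance 0.0436), Isoc2b (0.0517), Tmem19 (0.0561), the glutathione transferase Gstt3 (0.0592) and the adaptor Dok2 (0.0664). Their changes lay between log2 2.07 for Tmem19 and 2.12 for Dok2. In all, at least 118 genes lay within a distance of 0.2, so a profile like that of Grb2 is shared by many genes.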

How the data were processed

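The 9 genes and the lists were chosen with earlier results of these data known. Per the file headers, the authors read array design 014868 with Agilent Feature Extraction 10.5.1.1, whose processed intensity is background-subtracted and not normalized across arrays. Also deposited was a table of the authors' log2 values, which equals the log2 of this intensity within 1e-06 on 4 arrays and not on both arrays numbered 1, where how it was made is not stated. It served as an alternative.

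Control spots were left out and spots flagged as outliers (59 to 89 per array, none of the adaptors) set to missing. From log2 intensities the 75th percentile of the array was subtracted, and spots of a probe averaged; each adaptor probe had 1 spot. A probe was tested if either group had it well above background on its 3 arrays. Groups were compared with limma 3.58.1 in R 4.3.3 over 21190 probes, 2-sided, with Benjamini-Hochberg adjustment at 0.05, after a trial on simulated data. A gene's brightest tested probe stands for it. Of 41174 probes, 25097 were named by RefSeq accession (GRCm38.p6, names only) and the others kept the name in the files. Positions are on mm9, from the files. Normexp used an offset of 50.

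Named were all adaptors and, of each list, up to 6 genes, the largest called changes first, with Met and Hgf always. The fit of differences between probes of a gene was added after the data were seen. Slide 1 held replicates 1 and 3 of both groups and slide 2 replicates 2. Replicate numbers come from the titles.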

Additional observations from a re-analysis of the deposited data

How the results depend on the processing

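Over 21 alternatives, 15 adaptor probes gave 312 values. Of the 297 with a test, 289 kept direction and call, 4 lost the call, 2 gained it and 4 changed sign, some in both respects. Some alternatives altered only the filter, the variance estimate, the flagged spots or a block for slide or replicate. These left each change as it was, so direction could not differ there. The 15 values on slide 2, with 1 array per group, had no test and kept their direction. Calls were lost by Sos1 A_51_P125792 (0.0998) and Cbl A_51_P332081 (0.0034) with normexp background and by Crkl A_51_P350843 with each array's median (−0.26). Spike-in scaling turned the last to 0.071 with no call, turned Ptpn11 A_52_P211393 to 0.41 and lifted Shc1 to 0.49, both with a call. Ptpn11 A_52_P211393 was 0.076 with each array's median, and Shc1 −0.022 within slide 1. Without each array in turn, 13 to 14 adaptor probes, 8 adaptor genes and 42 to 45 listed genes were called. In the same fits 84.9% to 88.1% of all tested probes were called. Deviations of arrays with the same replicate number correlated at −0.0029, 0.108 and 0.0689, so the numbers were not taken as pairs. With the replicate block 13 adaptor probes were called, 10 higher and 3 lower, as without it, against 87.5% of all tested probes. Without a filter on dim probes 48.2% of 41174 probes were called. Dim probes (Gab2, Cbl, the second Grb2 probe) are limited by signal over background.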
